A study of Homo sapiens with 3 samples.

Results

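The replication-dependent histone genes were followed in maps of 2 histone marks, H3K4me1 and H3K4me3, in ALL-SIL, an established cell line grown from a human T-cell acute lymphoblastic leukaemia. Members were the protein-coding RefSeq genes of GRCh38 with the symbols H1-1 to H1-6, or with H2AC, H2BC, H3C or H4C and a number. The rule found 69 of 20033 protein-coding genes on the numbered chromosomes, X and Y. Of these, 55 lie on chromosome 6, 13 on chromosome 1 and 1, H4C16, on chromosome 12. The families hold 6 H1, 17 H2A, 18 H2B, 13 H3 and 15 H4 genes. H2BC12L on chromosome 21 is not taken by the rule and had no peak of either mark within 1 kb.

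The study comprised 3 samples of untreated ALL-SIL cells, 1 chromatin immunoprecipitation library for H3K4me1, 1 for H3K4me3 and 1 of input DNA. After filtering they held 34813455, 30823016 and 18859011 tags. Peaks had been called for each mark against the input, giving 62087 regions of H3K4me1 and 11100 of H3K4me3. With 1 library per mark nothing has a replicate error, so values are set side by side with no test, and the exact (Clopper-Pearson) 95% intervals cover counting error only and treat genes that share a peak as separate.

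Replication-dependent histone genes supply the core histones H2A, H2B, H3 and H4 and the linker histone H1 while DNA is being copied. Most lack introns, stand close together in clusters, and give messages that end in a stem-loop in place of a poly(A) tail. NPAT, a substrate of cyclin E and CDK2, activates them in the histone locus body, and many H2A and H2B genes share a short promoter and run away from each other. H3K4me3 is the mark of active or poised promoters, and H3K4me1 is found at enhancers and on the flanks of promoters.

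The 250 bases before the annotated start are shown for 5 members on which the account below turns, from RefSeq (GRCh38.p14). H4C2 (chr6:26027284-26027533, minus strand) carried the H3K4me3 peak of highest fold. The H2AC11 bases (chr6:27132793-27133042, plus strand) reach back to the start of its divergent partner H2BC11, and both starts lay in 1 H3K4me3 peak. H2BC14 (chr6:27814772-27815021, plus strand) is the plus-strand gene of a divergent pair with no peak of either mark. H1-6 (chr6:26108136-26108385, minus strand) encodes the testis linker histone and had no H3K4me3. H3C14 (chr1:149841209-149841458, minus strand) is nearly identical to H3C15 over this window. Capitals mark the CCAAT box, the TATA box letters TATAAA and the octamer ATTTGCAT, each on either strand. Read from the other strand, the first appears as ATTGG, the second as TTTATA and the octamer as ATGCAAAT.
H4C2: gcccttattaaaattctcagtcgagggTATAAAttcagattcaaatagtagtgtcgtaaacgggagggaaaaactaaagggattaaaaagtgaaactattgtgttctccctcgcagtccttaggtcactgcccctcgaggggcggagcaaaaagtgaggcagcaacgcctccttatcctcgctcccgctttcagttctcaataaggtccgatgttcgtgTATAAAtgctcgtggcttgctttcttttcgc
H2AC11: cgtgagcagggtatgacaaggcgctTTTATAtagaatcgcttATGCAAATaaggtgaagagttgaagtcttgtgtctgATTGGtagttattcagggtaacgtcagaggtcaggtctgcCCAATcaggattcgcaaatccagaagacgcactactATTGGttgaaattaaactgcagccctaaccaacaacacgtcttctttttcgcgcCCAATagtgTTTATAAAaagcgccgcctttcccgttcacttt
H2BC14: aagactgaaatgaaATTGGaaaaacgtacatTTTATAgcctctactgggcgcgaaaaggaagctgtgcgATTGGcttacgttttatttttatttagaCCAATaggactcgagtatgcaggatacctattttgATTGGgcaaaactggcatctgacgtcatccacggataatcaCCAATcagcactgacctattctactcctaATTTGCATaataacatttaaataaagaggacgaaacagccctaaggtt
H1-6: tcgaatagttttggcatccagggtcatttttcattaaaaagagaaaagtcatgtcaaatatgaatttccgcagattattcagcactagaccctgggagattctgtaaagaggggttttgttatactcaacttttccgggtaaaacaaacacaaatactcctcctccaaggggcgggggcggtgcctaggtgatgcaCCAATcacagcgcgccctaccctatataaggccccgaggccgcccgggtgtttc
H3C14: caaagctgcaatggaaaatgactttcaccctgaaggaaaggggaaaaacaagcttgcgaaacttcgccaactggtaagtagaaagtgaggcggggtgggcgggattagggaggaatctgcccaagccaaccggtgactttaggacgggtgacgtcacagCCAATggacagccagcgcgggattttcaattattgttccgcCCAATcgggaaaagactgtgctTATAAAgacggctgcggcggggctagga

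The letters were counted in the start window of 300 bases, 250 before and 50 after the start, which the reference table holds for 64 of the 69 members. H4C1, H4C3, H2AC12, H3C11 and H3C12 had none. CCAAT stood in 54 of the 64 windows (84.4%) and in 35.7% of the 27305 windows of all genes. It was in every H1, H2A, H2B and H3 window and in 3 of 13 H4 windows. TATAAA stood in 42 of 64 (65.6%), against 12% of all windows. The octamer stood in 26 of 64 (40.6%), against 1.80%, and 25 of these were windows of H2A (11 of 16) or H2B genes (14 of 18). The other was counted under H3, a set in which the H3C4 window is identical to that of H2AC7. CACGTG, an E-box, was in none of the 64 and in 7.43% of all windows. The 64 windows are not all separate stretches of DNA. Those of divergent partners overlap, so 1 match in a shared promoter can be counted for both genes. In the sequences above, H4C2 shows TATAAA with its first base 31 bases before the start, a second 223 bases before it and no CCAAT. The H2AC11 stretch holds 4 CCAAT, 1 octamer and TATAAA on both strands, and TATAAA overlaps itself on the 2 strands near the H2AC11 start. The unmarked H2BC14 stretch holds 5 CCAAT, 1 octamer and 1 TATAAA, the last on the minus strand. Among the 42 windows whose start lay inside H3K4me3, 38 held CCAAT, 25 TATAAA and 20 the octamer. Among the 22 with the start outside, the counts were 16, 17 and 6. These groups differ in family, which cannot be told apart from the letters here. The start lay inside H3K4me3 for 12 of 16 H2A and 14 of 18 H2B genes, but for 5 of 13 H4 genes. A match of letters is a description of the window and shows no binding.

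H3K4me3 stood at most of these genes. A peak overlapped the gene or the 1 kb on either side for 57 of 69 members (82.6%, interval 71.6 to 90.7%), while the same held for 53.4% of all protein-coding genes. Member genes are short, with a median span of 494 bp, and only 16.2% of the 1194 other protein-coding genes with a span under 2 kb had H3K4me3 in the same window. The 36 listed DNA replication genes all had H3K4me3 by this measure, as did 80 of 81 cytosolic ribosomal protein genes. The median spans of these 2 lists, 35185.5 and 5015 bp, are longer than that of members, and a peak anywhere in the span counts.

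H3K4me1 within 1 kb was less frequent. It was found at 31 of 69 members (44.9%, interval 32.9 to 57.4%), beside 63.4% of all protein-coding genes and 21.4% of the other short ones. Both marks stood at 30 members, H3K4me3 alone at 27, H3K4me1 alone at 1 (H2BC6) and neither at 11. Over all protein-coding genes, H3K4me3 alone was found at 784 (3.91%). With 5 kb on each side H3K4me1 was found at 65 of 69 members (94.2%), against 67.7% of all protein-coding genes and 31.2% of the other short ones. Over the gene span alone it was found at 15 (21.7%), against 60.5% and 15.6%.

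**Figure D1:**
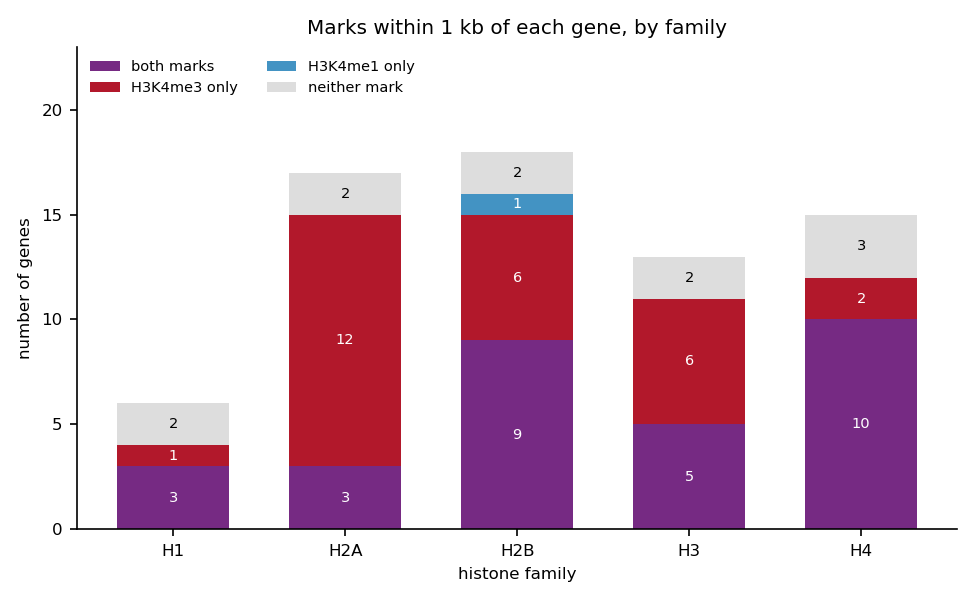
Number of histone genes (vertical axis) with both marks, H3K4me3 only, H3K4me1 only or neither within 1 kb, for each family (horizontal axis). H2A has the most genes with H3K4me3 only, 12 of 17, and H4 the most with both marks, 10 of 15.

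By family, the share of genes with H3K4me3 ran from 66.7% to 88.2% and that with H3K4me1 from 17.6% to 66.7%. H3K4me3 was found at 4 of 6 H1, 15 of 17 H2A, 15 of 18 H2B, 11 of 13 H3 and 12 of 15 H4 genes. H3K4me1 was found at 3 of 6 H1, 3 of 17 H2A, 10 of 18 H2B, 5 of 13 H3 and 10 of 15 H4 genes. The exact intervals of H2A (3.80 to 43.4%) and H4 (38.4 to 88.2%) for H3K4me1 overlap. H2B takes part of its count from long annotated spans: 8 members have a span over 1 kb, 5 of them H2B genes, and 7 of the 8 had H3K4me1.

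Because neighbours share peaks, the 57 members with H3K4me3 rested on 35 distinct peaks. Of these, 13 stood at 1 member, 18 at 2 and 4 at 3. Their median length was 2183 bp (quartiles 1531 and 3649.5, range 296 to 5604). The median was 1397 bp in the whole list and 1495 bp for the 8329 peaks at an end of another protein-coding gene. Of the 35, 22 were at least 2 kb long (62.9%), against 24.0% of the list, and 7 were at least 4 kb. The peaks were not set apart in the same way by enrichment. Their median fold over input, a score of the authors' caller, was 4.71 (range 2.39 to 9.92), beside 4.53 in the whole list.

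The longest H3K4me3 peak covered H3C4, H2AC7 and H2BC7 for 5.60 kb (chr6:26195092-26200695, fold 5.58). It was followed by those at H3C8 and H2BC10 (4.72 kb, fold 4.33), at H1-4 and H2BC5 (4.70 kb, fold 4.19) and at H3C12, H2AC17 and H2BC17 (4.51 kb, fold 3.07). H2BC13, H2AC13 and H3C10 shared 4.31 kb at a fold of 7.17, and H3C7 and H2BC9 shared 4.14 kb at 4.63. On chromosome 1, H2AC25 and H2BC26 shared 4.02 kb at 7.02, and H2BC21, H2AC20 and H2AC21 shared 3.60 kb at 4.30. The other members of the longest 10 were the peaks at H2BC4 and H2AC6 (3.94 kb, fold 4.76) and at H3C2 and H2AC4 (3.70 kb, fold 7.60). All of these 10 peaks stood at more than 1 histone gene, though in a dense cluster a longer peak takes in more genes by the way they are counted.

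By fold the order was another. The highest value was at H4C2, 9.92 over a peak of 1.33 kb (chr6:26026077-26027402), higher than 97.7% of the whole list. H3C2 and H2AC4 followed at 7.60, H4C4 at 7.19 over only 0.425 kb (chr6:26188575-26188999), then the H2BC13 and H2AC25 peaks given above. The lowest fold, 2.39, was at H2BC3 and H3C3. H4C2 and H4C4 both encode histone H4, and their peaks held that gene alone.

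**Figure D2:**
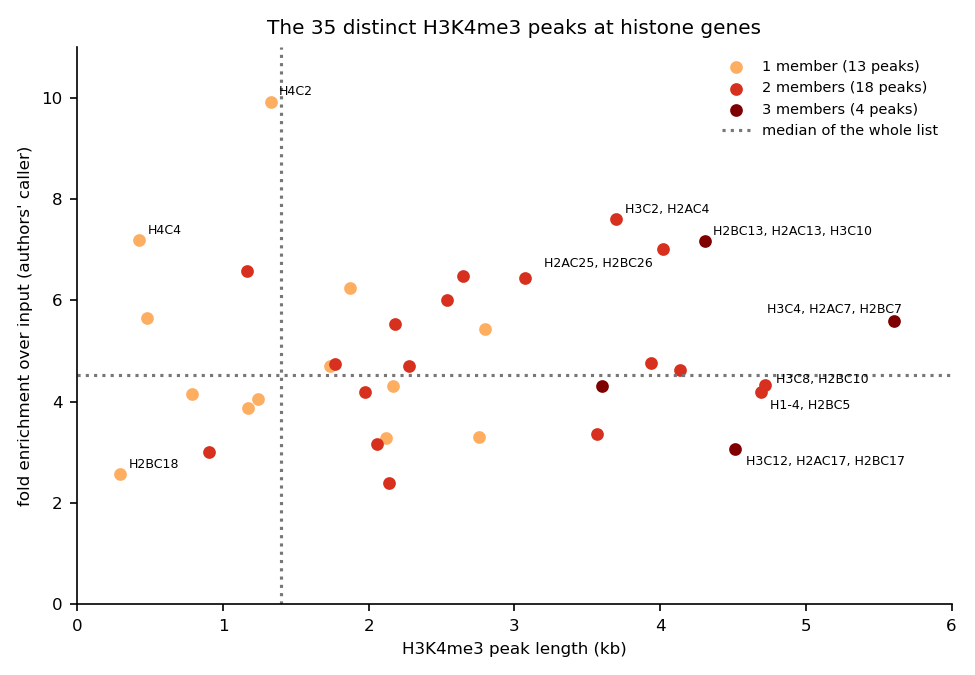
Each point is 1 of the 35 distinct H3K4me3 peaks, with its length in kb (horizontal axis) against its fold over input from the authors' caller (vertical axis), coloured by the number of members at it. Dotted lines are the medians of the whole list, 1.40 kb and 4.53. Peaks with 2 or 3 members reach the greatest lengths, in part because a longer peak comes within 1 kb of more neighbours. H4C2 has the highest fold.

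The linker histone genes gave a mixed picture. H1-2 had a peak of 2.76 kb (fold 3.29) and H1-3 one of 2.80 kb (fold 5.44), each with no other member. H1-4 shared its peak with H2BC5, and H1-5 one of 2.27 kb (fold 4.71) with H2AC16, which ended 31 bases downstream of the H1-5 start. H1-1 had no H3K4me3 within 1 kb, the nearest being 2635 bp away, and H1-6 none within 2982 bp.

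The H3 and H4 genes, which encode the tetramer at the core of the nucleosome, differed in how much H3K4me3 surrounded them. H3C1 and H4C1 shared 2.18 kb (fold 5.54), H3C11 and H4C13 shared 1.77 kb (fold 4.75), and H3C6 had 0.788 kb (fold 4.15). Among H4 genes with a peak that held no other member, H4C3 had 0.480 kb (fold 5.64), H4C5 1.87 kb (6.24), H4C8 2.17 kb (4.30), H4C11 1.24 kb (4.04) and H4C12 1.17 kb (3.88). H4C9 lies inside the long span of H2BC12, and both had the same 2.53 kb peak (fold 6). H4C16, the member on chromosome 12 (14770720 to 14771131), had 1.74 kb (fold 4.71) over its whole span, and H3K4me1 began 705 bp away.

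H3K4me3 covered the whole span of 39 members (56.5%) and at least 50% of it in 46 (66.7%). Full cover depends on gene length: among the other genes with a span under 2 kb, 3.77% were wholly covered and 9.72% at least 50% covered, and among all protein-coding genes 0.534% and 1.42%. No base was covered in 16, which were the 12 with no peak within 1 kb and H2AC18, H2AC19, H2BC3 and H3C12, whose nearest peaks lay 620, 617, 264 and 314 bp away. The annotated start itself lay inside H3K4me3 for 42 of 64 members with a listed start (65.6%), against 46.7% of the 15842 protein-coding genes with one. By family these were 3 of 6 H1, 12 of 16 H2A, 14 of 18 H2B, 8 of 11 H3 and 5 of 13 H4 genes. The H3 count includes H3C4, whose first listed start is the same base as that of H2AC7.

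At some H4 genes the peak stood downstream of the start. H4C4, H4C11, H4C12 and H4C13 had H3K4me3 over part of the gene and not over the start. Its edge began 113, 242, 221 and 98 bases downstream of the start, respectively. H4C15 had 1 peak inside its long span, 10715 bases downstream of the start, and another just past the far end of the span. H3C13 and H1-5 had the same arrangement, with the edge 50 and 31 bases downstream. Together with H4C15, this was found in 5 of 13 H4 genes, 1 of 6 H1, 1 of 11 H3 and none of the H2A and H2B genes. No share over all protein-coding genes is given for this arrangement. At the length of a sequenced tag, the start windows of H4C15, H4C11, H4C12 and H3C13 were wholly or partly repeated in another gene's window, as given below. Those of H4C4, H4C13 and H1-5 were not, with overlapping windows left out of the comparison.

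Where the start was inside a peak, H3K4me3 reached a median of 1404.5 bases upstream (range 29 to 4424, 42 genes) and 1743 downstream (229 to 4201). For the 7357 other protein-coding genes with H3K4me3 at the start the medians were 581 and 938. H2BC7 had the greatest upstream reach, 4424 bases, over H2AC7 and H3C4, and H3C1 the smallest, 29. The upstream reach at a histone gene often crosses a neighbouring histone gene, so these values describe the locus and not 1 promoter.

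**Figure D3:**
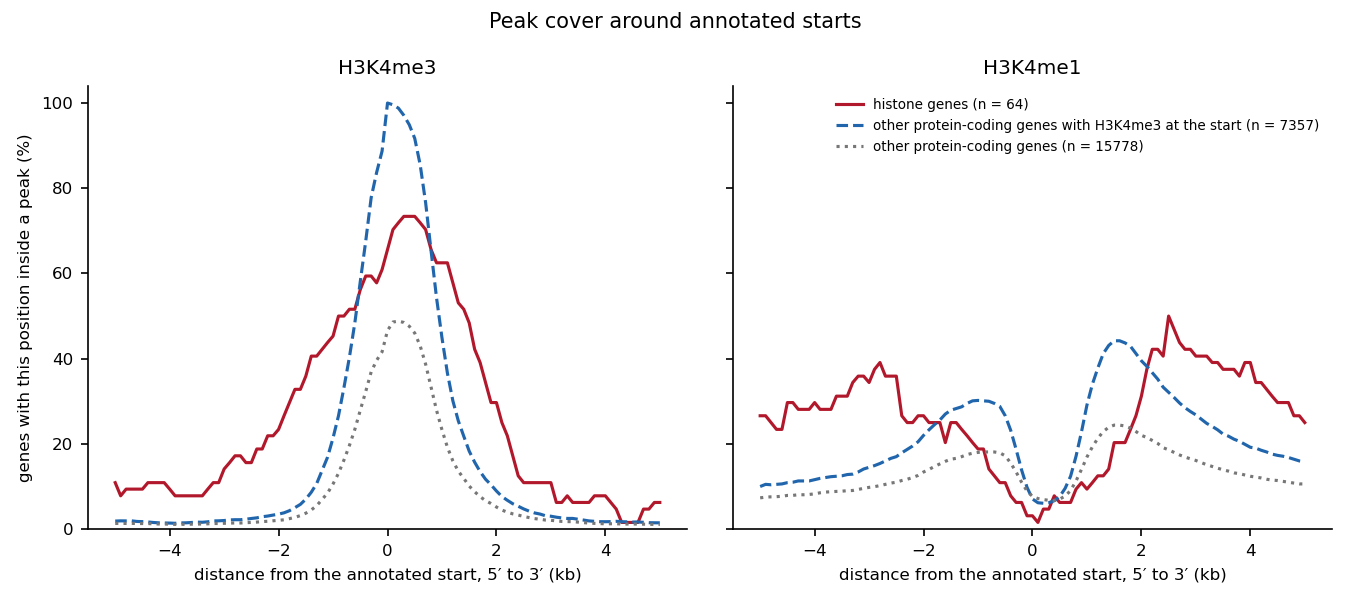
Percent of genes (vertical axis) whose position at each distance from the annotated start (horizontal axis, in kb, downstream to the right) lay inside a peak of H3K4me3 (left) or H3K4me1 (right), for 64 histone genes, 7357 other protein-coding genes with H3K4me3 at the start and 15778 other protein-coding genes in all. The histone genes were not chosen by H3K4me3, and 42 of the 64 had it at the start. At 2 kb upstream, 23.4% of the histone genes, 3.51% of the other genes with H3K4me3 at the start and 2.05% of all other genes were inside H3K4me3. For H3K4me1 the order changed with distance. At 1.5 kb downstream the shares were 20.3%, 44.2% and 24.4%, and at 3 kb 40.6%, 26.8% and 16.1%.

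Pairs of H2A and H2B genes transcribed away from each other make up much of the module. Taking starts at most 500 bp apart, 12 pairs of members were divergent, with 194 to 248 bp between starts. They rest on 11 distinct pairs of starts, since the first listed starts of H3C4 and H2AC7 are the same base. In 10 of the 12, a single H3K4me3 peak lay over both starts, and 85.8% of 724 other divergent pairs of protein-coding genes had the same. H2BC11 and H2AC11, whose shared promoter is printed above, had a peak of 3.08 kb (fold 6.43) reaching 1563 bases past the H2BC11 start and 1263 past the H2AC11 start. H2AC15 and H2BC15 shared 3.57 kb (fold 3.35), and H2BC8 and H2AC8, at 1.98 kb (fold 4.19), had the shortest peak of these pairs. No pair had H3K4me1 in the 194 to 248 bp between its starts. No share of the other divergent pairs is given for this, so it is not read as a trait of histone pairs. The 2 pairs without H3K4me3 were H2AC1 with H2BC1 and H2AC14 with H2BC14.

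The genes without H3K4me3 within 1 kb were 12. H2AC1 and H2BC1, which encode testis variants and stand apart from the large clusters on chromosome 6, were the farthest from any H3K4me3, at 236033 and 235250 bp. Their distances to H3K4me1 were 139449 and 138666 bp. H1-6, the other testis gene, stood inside the first large cluster with H3K4me3 2982 bp away and H3K4me1 1125 bp away. H1-1, H2BC6, H4C6 and H4C7 are in the same cluster, with H3K4me3 at 2635, 4345, 4913 and 2493 bp. H2BC6 had H3K4me1 243 bp away, in a peak of 3.14 kb and fold 4.64. H2AC14 and H2BC14 lay 2791 and 3511 bp from H3K4me3, next to the marked H3C10. H4C14, H3C14 and H3C15 on chromosome 1, at 10318, 2162 and 2164 bp, complete the list.

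Of these, the chromosome 1 genes stand in a stretch with near-identical copies. Of the 75-base stretches in the start window, about the length of a sequenced tag, 100% of those of H4C14 and H4C15 stood in the other's window. The share was 98.2% for H3C14 and H3C15 and 99.6% for H2AC18 and H2AC19. None of these 6 starts lay in a peak of H3K4me3. How reads with several matches were treated is not given in the sources used here, and its part in these empty starts was not tested. The H3K4me3 counted for H2AC18, H2AC19 and H4C15 came from peaks that overlap the pseudogenes H2BC19P (0.903 kb, fold 3) and H2BC20P (1.17 kb, fold 6.58). Windows that overlap on the genome, as those of divergent partners do, were not compared with each other. On this count 51 of the 64 windows shared no such stretch with another, H1-6, H1-1, H2AC1 and H2BC1 among them. H2AC14 and H2BC14 each shared 8.41% with the windows of H2AC13 and H2BC13, a pair with H3K4me3 over both starts.

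**Figure D4:**
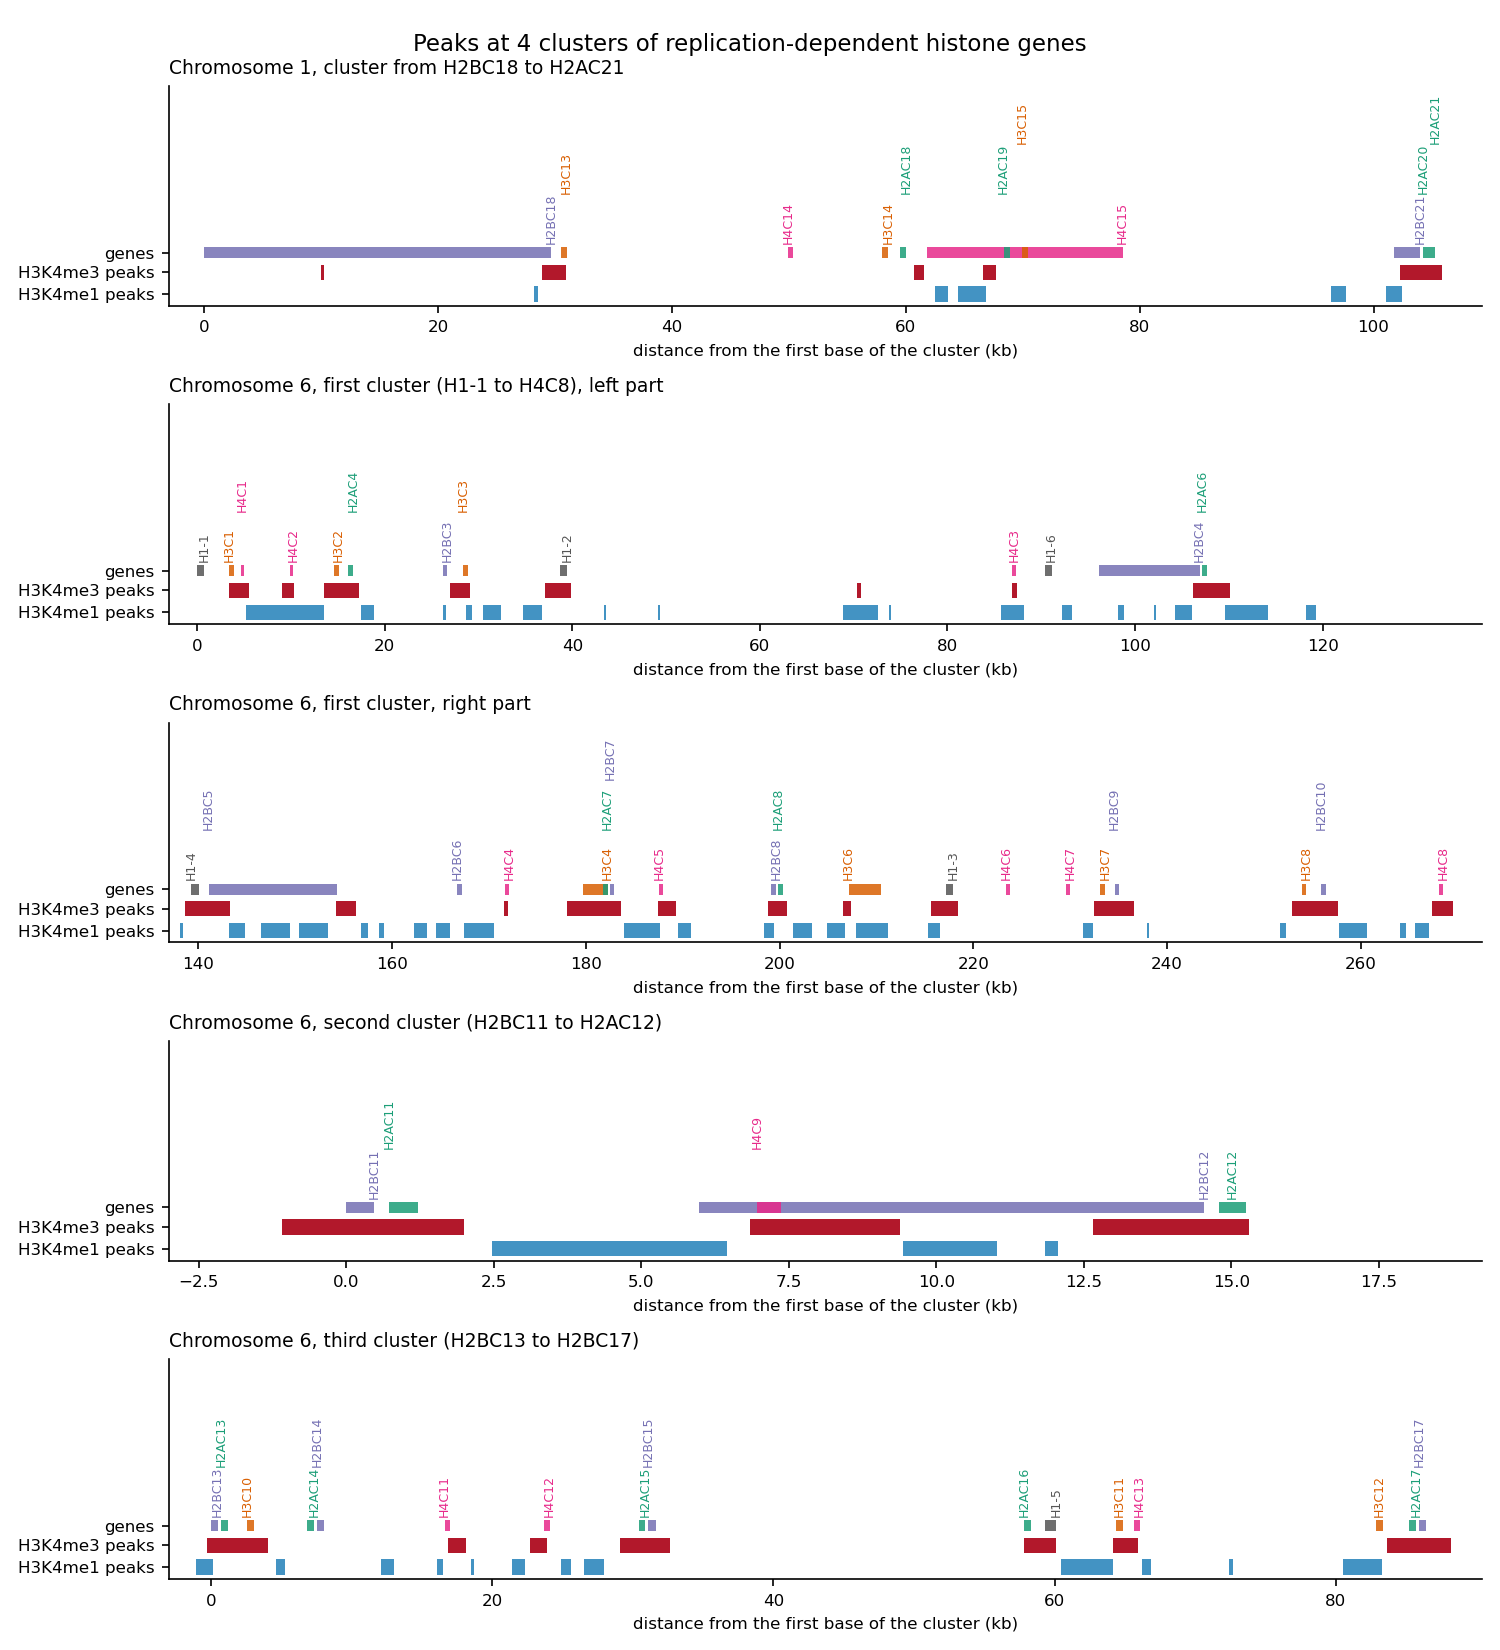
Maps of the 4 clusters with more than 2 members, with distance in kb from the first base of each cluster (horizontal axis); the largest is drawn in 2 panels. Gene names stand above their annotated starts, coloured by family as the gene boxes are. Red boxes are H3K4me3 peaks and blue boxes are H3K4me1 peaks, which lie mainly between the red ones; the red box with no histone gene over it in the first chromosome 6 cluster is at HFE.

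Joining members at most 200 kb apart gave 6 clusters on chromosomes 1 and 6 and H4C16 alone. The first large cluster of chromosome 6 (26017032 to 26285534, 269 kb) holds 32 members from H1-1 to H4C8, of which 27 had H3K4me3 and 17 H3K4me1. H3K4me3 covered 17.6% of its bases and 2.31% of the 500 kb on each side. H3K4me1 covered 25.1%, and 4.29% beside it. Of its 19 H3K4me3 peaks, 18 stood at members and the other at HFE, an iron-regulating gene, and its antisense gene HFE-AS1. Its 39 H3K4me1 peaks were divided into 21 within 1 kb of a member and 18 farther away.

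The second chromosome 6 cluster (27132316 to 27147562, 15.2 kb) is the most densely marked of the 4, with H3K4me3 at all 5 members, over 46.7% of its bases, and H3K4me1 over 37.9%. The values beside it were 1.27% and 1.22%. In the third (27807479 to 27893891, 86.4 kb), 14 of 16 members had H3K4me3 and 8 had H3K4me1, with 19.4% and 14.6% of bases covered, and 2.60% and 2.94% beside it. On chromosome 1 the cluster from H2BC18 to H2AC21 (149782689 to 149887965, 105 kb) had H3K4me3 at 8 of 11 members and H3K4me1 at 3. Its H3K4me1 cover, 6.24%, was no higher than the 7.03% beside it, and its H3K4me3 cover was 7.09%, against 2.46%. The chromosome 1 pair H2AC25 and H2BC26 (228457364 to 228458558) lay wholly inside H3K4me3, with no H3K4me1 within 1 kb.

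H3K4me1 at these genes had the form of flanks. Only 2 of 64 starts lay inside it (3.12%), H4C2 and H4C5, against 7.65% of protein-coding genes. Yet a peak stood within 5 kb of the start for 59 of 64 (92.2%), and for all 42 with H3K4me3 at the start. Of other protein-coding genes, 57.7% had one, and of those with H3K4me3 at the start, 91.6%. Within 2 kb beyond the edges of the 35 H3K4me3 peaks, H3K4me1 stood on both sides of 24 (68.6%), on 1 side of 10 and on neither of 1 (2.86%). In the whole H3K4me3 list 59.3% had it on both sides and 11.5% on neither. H3K4me1 overlapped 16 of the 35 (45.7%), near the 46.8% of the list.

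The 36 distinct H3K4me1 peaks within 1 kb of members had a median length of 1381 bp and a median fold of 3.04 (range 1.83 to 4.78), beside 1020 bp and 2.37 in the whole list. The highest folds were at H2AC4 (4.78) and H2BC6 (4.64). H3K4me1 touched the span of 15 members and covered at least 50% of it in 7 (10.1%) and all of it in 2 (2.90%), H4C2 and H4C3. At least 50% was covered in 7.12% of the other short genes and 4.20% of all protein-coding genes, and the whole span in 3.35% and 0.464%. Cover was 88.7% at H3C12, 77.7% at H3C6, 64.2% at H2BC8, 57.6% at H2BC5 and 51.3% at H2BC3. It was lower at H2BC18, H4C15, H2BC21, H3C3, H2BC4, H4C5, H2BC12 and H2BC13. The longest H3K4me1 peak at a member, 8.28 kb at a fold of 2.23 (chr6:26022287-26030570), ran from H4C1 past H4C2 towards H3C2. It held the whole H4C2 gene and its H3K4me3 peak, so the region of highest H3K4me3 fold among the members was called for both marks.

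Between members, H3K4me1 filled a larger share of the bases than between other genes. The 58 gaps between neighbouring members of a cluster span 363 kb, of which H3K4me1 covered 70.4 kb (19.4%), against 6.63% of the bases of 11858 gaps of the same range of lengths between other neighbouring protein-coding genes. The share of gaps with any H3K4me1 was close: 25 of 58 (43.1%) against 40.5%. H3K4me3 covered 12.6% of the bases between members and 1.57% between other genes.

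Gap length divided these values. In none of the 19 gaps of up to 1 kb was there any H3K4me1, where 21.1% of other gaps of that length had some, and 17 of the 19 lay wholly inside H3K4me3. From 1 to 5 kb, H3K4me1 covered 48.6% of bases between members and 14.4% between other genes. From 5 to 20 kb the values were 18.5% and 7.72%, and over 20 kb 10.5% and 5.42%. Gaps with H3K4me3 at both facing ends were set apart as well. Over all lengths, 21.7% of bases were covered in 41 such gaps between members and 13.1% in 1758 between other genes, a comparison chosen after the data were seen. Up to 1 kb, 0 of 17 such gaps between members held H3K4me1, against 26.8% of those between other genes, with 24.9% of bases covered. From 1 to 5 kb the covered shares were 58.4% and 36.4%, though fewer of these gaps between members held any H3K4me1, 5 of 11 (45.5%) against 75.9%. Over 20 kb the values, 10.9% and 9.87%, were close, and only 3 gaps between members enter there.

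**Figure D5:**
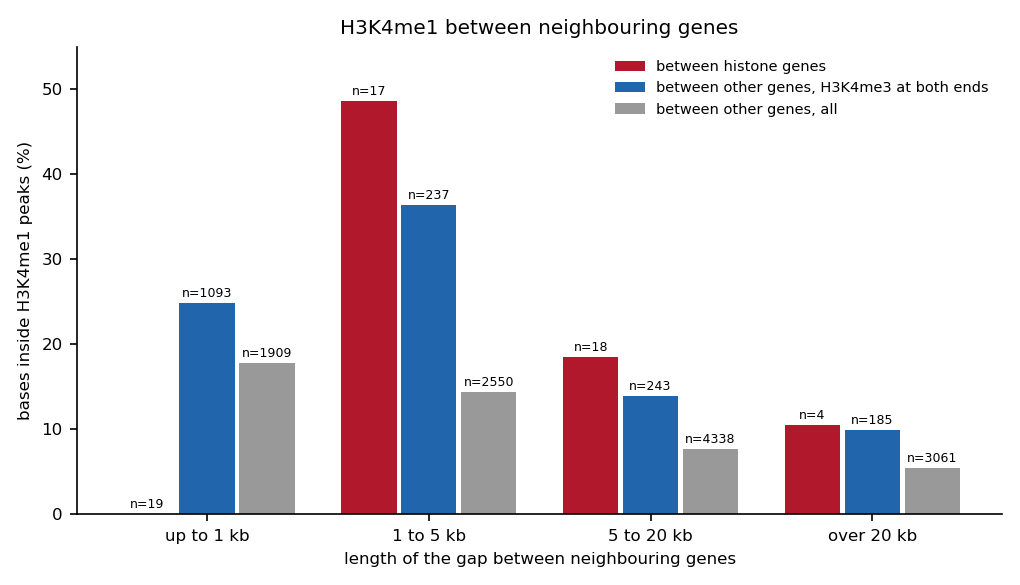
Percent of the bases between neighbouring genes that lay inside H3K4me1 peaks (vertical axis, from 0) by gap length (horizontal axis), for gaps between histone genes, between other protein-coding genes with H3K4me3 at both facing ends, and between all other protein-coding genes; n is the number of gaps. The bar for histone genes is 0 up to 1 kb and highest, 48.6%, from 1 to 5 kb.

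The 10 gaps with the most H3K4me1 lay on chromosome 6, 8 of them in its first large cluster. The most bases were between H2AC6 and H1-4, 5.90 kb in 3 peaks (18.6% of 31.6 kb), and between H1-2 and H4C3, 5.63 kb (11.9% of 47.5 kb), the gap that holds HFE. Next came H2BC10 to H4C8 with 5.03 kb (43.0%), H4C1 to H4C2 with 4.61 kb (95.1%) and H3C3 to H1-2 with 4.52 kb (45.8%). H2BC5 to H2BC6 had 3.98 kb (32.1%), H2AC8 to H3C6 3.77 kb (56.0%) and H2BC7 to H4C5 3.65 kb (79.0%). H1-5 to H3C11, in the third cluster, had 3.64 kb (85.5%), and H2AC11 to H2BC12, in the second, 3.50 kb (73.6%). By cluster, H3K4me1 covered 23.5% of the bases between members in the first chromosome 6 cluster, 66.6% in the second, 15.4% in the third and 3.61% in the chromosome 1 cluster.

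Genes that serve the histone genes were marked at nearly every entry. All 12 genes of histone gene transcription and the histone locus body had H3K4me3 within 1 kb and 11 had H3K4me1, the exception being CCNE1. Their longest peaks were at NPAT (4.01 kb), YY1 (3.98 kb), a zinc-finger factor, and CCNE2 (3.65 kb), a cyclin E gene. At GON4L and MYBL2, also of this list, the annotated start lay outside H3K4me3. Of 14 genes of histone message 3′ processing and decay, 14 had H3K4me3 and 13 H3K4me1. SLBP, which binds the stem-loop, had 3.14 kb and SNRPD3, a shared Sm protein, 2.92 kb, and CSTF2 was without H3K4me1. All 12 chaperone and assembly genes had both marks, with the longest H3K4me3 at ASF1A (3.83 kb) and NAP1L1 (3.15 kb). Over all protein-coding genes the shares were 53.4% for H3K4me3 and 63.4% for H3K4me1. A peak anywhere in the span counts, and these genes are long. The median span was 33248.5, 21951 and 34238.5 bp in the 3 lists, against 494 bp for members and 24130 bp for all protein-coding genes.

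Of 16 replication-independent histone variants, which are made outside S phase as well, 9 had H3K4me3 (56.2%) and 10 H3K4me1 (62.5%), near the shares of all protein-coding genes given above. The longest H3K4me3 was at H3-3A, an H3.3 gene (3.99 kb), H2AZ1 (2.81 kb) and H2AX, the variant phosphorylated at DNA breaks (2.79 kb). H1-7, H1-8, H2AJ, MACROH2A2, H3-4, H3-5 and H2BW1 had none. H1-7, H1-8 and H2BW1 are germ-cell genes, as H1-6, H2AC1 and H2BC1 are among the members. The other unmarked variants were not sorted by tissue here.

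The labelled cell type was checked on marker genes. H3K4me3 stood at 8 of 9 genes listed for the T lineage (CD2 was without) and 1 of 5 B-lineage markers (PAX5, with a peak of 0.197 kb). It stood at 0 of 5 myeloid and 0 of 4 erythroid markers. H3K4me1 stood at 8 of 9, 5 of 5, 2 of 5 and 0 of 4. The T-lineage count includes the homeobox gene TLX1. It also counts the neighbours CD3D and CD3G separately, although their H3K4me3 had the same length and fold (7.16 kb, 3.89).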

How the data were processed

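Of the 3 samples, each mark's library had a deposited peak table and the input entered only through the caller. The caller was MACS2 2.1.0.20150731, run for broad regions with q limits of 0.1 and, for strong regions, 0.05, and 1 tag was kept per position, per the file headers. The build was GRCh38, per the submitters' processing notes. The settings of the alignment were not given in the sources used here. For each peak the authors deposited a pileup (a coverage signal), the fold enrichment (a ratio over local background) and the −log10 of p and q. These were used only to describe, rank or filter within a list.

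Gene spans were those of RefSeq GRCh38.p14. A peak belonged to a gene if it overlapped the span or 1 kb on either side by 1 base. Starts were the first listed in the start table, and gaps ran between spans of neighbouring protein-coding genes. Shares and exact 95% intervals were computed with Python 3.11.15, pandas 2.3.3, numpy 2.4.6 and scipy 1.17.1. Overlap and cover functions were checked on simulated data. No test was made, since there was 1 library per mark.

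Members and gene lists were chosen with earlier results of these data known. Named were the members without H3K4me3 (up to 25), the 10 longest H3K4me3 peaks and the 5 of highest fold, members with H3K4me1 over the span, testis variants, members off chromosomes 1 and 6, the 10 gaps with most H3K4me1 and, in the lists, genes without H3K4me3 and up to 6 with the longest. Further members were named to account for each family, after their values were seen. Alternatives were other windows, stricter peak sets, merged peaks and other choices of gaps.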

Additional observations from a re-analysis of the deposited data

How the results depend on the processing

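Peak strength and window mattered most. With only peaks of −log10 q of at least 10 (4828 H3K4me3 and 1750 H3K4me1 peaks), members with H3K4me3 fell from 57 to 33, over 19 distinct peaks in place of 35 with a median length of 2534 bp in place of 2183. Members with H3K4me1 went from 31 to 0, and H3K4me1 cover between members from 19.4% to 0.210%. Of all protein-coding genes, 25% kept H3K4me3 and 4.01% H3K4me1 at that limit. With only peaks above their list's median −log10 q, 37 members had H3K4me3, over 21 peaks of median length 2646 bp, 25 had H3K4me1, and cover was 15.2%. These are 53.6% and 36.2% of members, against 28.6% and 43.0% of all protein-coding genes. With as many H3K4me1 as H3K4me3 peaks, 12 members had H3K4me1. For H3K4me1 the gene span gave 15 members, 5 kb gave 65, the start window 4 and cover of at least 50% of the span 7. For H3K4me3 the same windows gave 53, 66, 43 and 46 members. The median H3K4me3 length at gene spans was 2228 bp. Cover between members was 19.6% without the 1 kb next to each member, 24.3% in gaps up to 20 kb, 20.6% in gaps with no other protein-coding gene and, added after the data were seen, 21.7% with H3K4me3 at both facing ends. Long spans cut to 1000 bases, also added later, gave 56 members with H3K4me3 and 28 with H3K4me1. Leaving out members with an identical start window left 65, of which 54 had H3K4me3 and 30 H3K4me1. No paired analysis was possible because each mark had 1 library and the labels carry no replicate numbers. After filtering, 34813455 (H3K4me1) and 30823016 (H3K4me3) tags were left, and a missing peak at this depth does not show that the mark is absent.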
